A study of Homo sapiens with 6 samples.

Results

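Chains of abutting peaks are stretches of the genome that a peak caller cut into 3 or more neighbouring peaks with only 20 bp between one and the next. They were drawn from 3 lists of peaks made with dREG, which scores run-on signal for the shape of transcription starting in opposite directions, at promoters and enhancers alike. The members were chosen by the measured peak positions: on chromosomes 1 to 22 and X of each list, neighbouring peaks separated by exactly 20 bp, the smallest distance in any list, were joined, and runs of 3 or more peaks were kept. This gave 3155 chains from 78446 peaks. The PRO-seq 1M list held 1045 chains made of 3391 of its 24707 peaks, the qPRO-seq 1M list held 1864 chains made of 6207 of 38177 peaks, and the qPRO-seq 250k list held 246 chains made of 773 of 15562 peaks.

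The 6 libraries came from untreated K562, a human line established from a leukaemia (lymphoblastoid in the labels' wording), and all 3 groups share that line and its medium. PRO-seq maps engaged RNA polymerase by letting permeabilized cells add a biotin-labelled nucleotide (here C or U) to nascent RNA, which is then captured on streptavidin beads and sequenced from its 3′ end. PRO-seq 1M used the published protocol with 3 affinity purifications on 1M cells, qPRO-seq 1M a shortened protocol with 1 purification on the same input, and qPRO-seq 250k the shortened protocol on 250k cells, with 14 cycles of PCR in place of 11. Each group had 2 biological replicates, grown at least 3 passages apart, and 1 peak list that the labels give for both.

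An active promoter in mammalian cells is usually a region without nucleosomes at its middle, from which polymerases start in opposite directions on the 2 strands. One polymerase makes the gene's RNA and the other an unstable upstream RNA, and both tend to pause a short way past their start. Many promoters in CpG islands start transcription at several positions, and pairs of genes can share a promoter region and run away from each other. Active enhancers carry the same divergent arrangement on a smaller scale. A run of abutting peaks can therefore cover a promoter, its upstream partner and starts further into the gene. The peak lists hold regions and scores but no polymerase positions, so the number of start sites in a chain was not measured, and the members are called chains here, after the rule.

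Boundaries that 2 lists drew at one position are shown first, as examples of the sequence at a gap. Inside chains, 138 gaps of 20 bp lay at the same position in 2 or more lists, 4 of them in all 3. Of the 138, 20 lay within the RefSeq promoter windows (build GRCh38.p14, 250 bases before to 50 after each start) and 11 of those could be printed, the others lying in a UTR or on a chromosome whose sequences are left out here. The 6 in chains with the most peaks are printed 5′ to 3′ along the gene, with the gap in capitals and up to 40 bases of its window on each side. They were chosen after the positions had been seen, because none of the 4 gaps shared by all lists lay in a window.
FNDC3A, chr13:48975662-48975730, plus strand: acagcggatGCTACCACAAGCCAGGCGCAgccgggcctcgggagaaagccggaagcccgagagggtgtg
VAMP4, chr1:171742248-171742315, minus strand: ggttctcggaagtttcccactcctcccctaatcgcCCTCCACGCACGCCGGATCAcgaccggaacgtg
H3-3A, chr1:226062361-226062460, plus strand: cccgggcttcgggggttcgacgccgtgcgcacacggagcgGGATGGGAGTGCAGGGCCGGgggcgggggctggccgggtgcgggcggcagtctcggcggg
SP2, chr17:47895986-47896050, plus strand: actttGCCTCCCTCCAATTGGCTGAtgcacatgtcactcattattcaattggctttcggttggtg
CCNI, chr4:77076161-77076239, minus strand: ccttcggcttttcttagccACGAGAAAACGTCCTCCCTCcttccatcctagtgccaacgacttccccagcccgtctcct
TMEM267, chr5:43484011-43484110, minus strand: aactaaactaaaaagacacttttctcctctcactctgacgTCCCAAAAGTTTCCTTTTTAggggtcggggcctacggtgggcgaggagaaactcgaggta

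The 6 gaps shared no composition. Their GC content ran from 30% at TMEM267 to 75% at H3-3A, the gene of a replacement histone. The gaps at TMEM267 and at SP2, which encodes a zinc finger factor of the Sp family, held no CpG. Over all chain gaps that fell in a promoter window, mean GC content was 64.2% ± 15.5 (SD, 282 gaps) in PRO-seq 1M, where the windows holding them averaged 66.9%. It was 64.5% ± 14.97 (SD, 416 gaps) against 65.1% in qPRO-seq 1M, and 62.8% ± 14.2 (SD, 85 gaps) against 63.9% in qPRO-seq 250k. Gap means were thus below window means by less than the SD of single gaps, and the differences of the means were not tested. Medians of gaps and windows were 65% and 67.7% in PRO-seq 1M, and 65% and 65.3% in qPRO-seq 1M. In qPRO-seq 250k they went the other way, at 65% and 62%. CpG counts per 100 bases were also lower in gaps than in their windows, at 8.39 and 9.81 in PRO-seq 1M, 8.19 and 9.14 in qPRO-seq 1M, and 7.12 and 8.82 in qPRO-seq 250k. A stretch as short as a gap holds fewer pairs of neighbouring bases per base than a window does, which lowers its CpG count slightly. How much of the differences came from this was not tested.

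A further set shows promoters that lay in a chain of every list. The 4 below are the first by width of common span with at least 200 bases free of UTR before the start. Their whole promoter window also had to lie in the common span. Their symbol had to be the same in RefSeq and in the GENCODE annotation. Genes with differing symbols, and the chromosome left out above, could not enter. Capitals mark matches, on either strand, to the GC box GGGCGG and the CCAAT box CCAAT, and adjoining or overlapping matches run together.
ZNF584, chr19:58408399-58408624, plus strand: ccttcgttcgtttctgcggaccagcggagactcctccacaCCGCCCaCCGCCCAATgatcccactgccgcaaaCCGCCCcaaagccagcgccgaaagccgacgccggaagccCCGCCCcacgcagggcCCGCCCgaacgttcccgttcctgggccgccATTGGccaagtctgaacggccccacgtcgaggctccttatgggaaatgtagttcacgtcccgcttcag
FBXL19, chr16:30922601-30922850, plus strand: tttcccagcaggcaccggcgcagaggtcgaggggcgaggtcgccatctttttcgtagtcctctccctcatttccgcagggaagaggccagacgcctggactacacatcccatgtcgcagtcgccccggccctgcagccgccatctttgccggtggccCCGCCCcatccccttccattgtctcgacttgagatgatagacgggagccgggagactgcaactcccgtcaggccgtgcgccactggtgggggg
CRKL, chr22:20917157-20917406, plus strand: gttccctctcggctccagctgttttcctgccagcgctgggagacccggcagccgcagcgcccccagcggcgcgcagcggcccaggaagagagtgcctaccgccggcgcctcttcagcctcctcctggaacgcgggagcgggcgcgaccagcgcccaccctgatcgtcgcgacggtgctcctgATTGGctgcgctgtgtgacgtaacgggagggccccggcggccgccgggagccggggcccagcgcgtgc
HP1BP3, chr1:20786689-20786916, minus strand: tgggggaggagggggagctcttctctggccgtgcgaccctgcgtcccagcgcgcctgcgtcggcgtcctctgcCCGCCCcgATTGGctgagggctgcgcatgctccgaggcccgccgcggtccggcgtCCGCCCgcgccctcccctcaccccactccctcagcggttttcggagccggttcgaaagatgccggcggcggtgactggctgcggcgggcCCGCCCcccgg

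ZNF584, a zinc finger gene, had 5 GC box matches and 2 CCAAT matches in this stretch, FBXL19 had 1 GC box and no CCAAT match, CRKL, which encodes an adaptor protein of signalling, had 1 CCAAT match and no GC box, and HP1BP3, which encodes a heterochromatin-associated protein, had 3 and 1. GC content lay between 65.2% and 76.3%, and none of the 4 held TATAAA on either strand. Across 22132 promoter windows of protein-coding genes, 56.3% held a GC box and 34.6% a CCAAT box. Among windows in a chain the GC box share was 75.9% in PRO-seq 1M, 73.0% in qPRO-seq 1M and 73.6% in qPRO-seq 250k, against 76.8%, 75.7% and 76.8% of windows under a single unchained peak. The difference in qPRO-seq 1M was -2.63 percentage points (95% interval -5.00 to -0.327), and the intervals for the other two lists included 0. Windows with no peak stood lower, at 39.9%, 40.6% and 45.2%. Median GC content of windows was 67.3% in chains and 66.7% under single peaks of PRO-seq 1M, 65.7% and 66.3% in qPRO-seq 1M, and 64.3% and 66.3% in qPRO-seq 250k. A TATAAA match 40 to 20 bases before the start was found in 1.63%, 1.797% and 0.733% of chain windows and 1.33%, 1.52% and 1.33% of single-peak windows.

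One motif differed in opposite directions between the 1M lists. The ETS core CCGGAAG, searched on both strands, was in 16.9% of PRO-seq 1M chain windows and 23.01% of single-peak windows, a difference of -6.13 percentage points (95% interval -8.45 to -3.64). In qPRO-seq 1M the shares were 23.5% and 20.6%, a difference of 2.88 points (0.690 to 5.14), and in qPRO-seq 250k 20.1% and 24.0%, a difference of -3.90 points (-8.36 to 1.37). The CCAAT share was lower in chain windows by 4.76 points in PRO-seq 1M (-7.67 to -1.75) and by 3.39 points in qPRO-seq 1M (-5.90 to -0.835), while the interval for qPRO-seq 250k included 0. These are Newcombe intervals on counts of windows. They cover counting error alone, and with 1 list per group no difference between lists was tested. The 22132 windows came from 15812 genes. Windows of 1 gene can share sequence, and the intervals are then too narrow.

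Chains were short runs for the most part. In PRO-seq 1M, 850 of the 1045 chains (81.3%) had 3 peaks, 149 had 4, 35 had 5, 8 had 6, 2 had 7 and 1 had 8. In qPRO-seq 1M the numbers for 3 to 7 peaks were 1393, 354, 95, 17 and 5, and in qPRO-seq 250k they were 215, 27 and 4 for 3 to 5 peaks. Median span was 1390 bp in PRO-seq 1M (720 to 2640), 1410 bp in qPRO-seq 1M (710 to 3000) and 1260 bp in qPRO-seq 250k (570 to 2450). Just outside the rule stood 3324, 4894 and 1667 runs of 2 peaks, with median spans of 940, 910 and 840 bp, against 1330, 1330 and 1240 bp for chains of 3. The next larger distances were rare: a gap of 30, 40 or 50 bp occurred 0, 21 and 30 times in PRO-seq 1M, beside 5670 gaps of 20 bp.

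**Figure D1:**
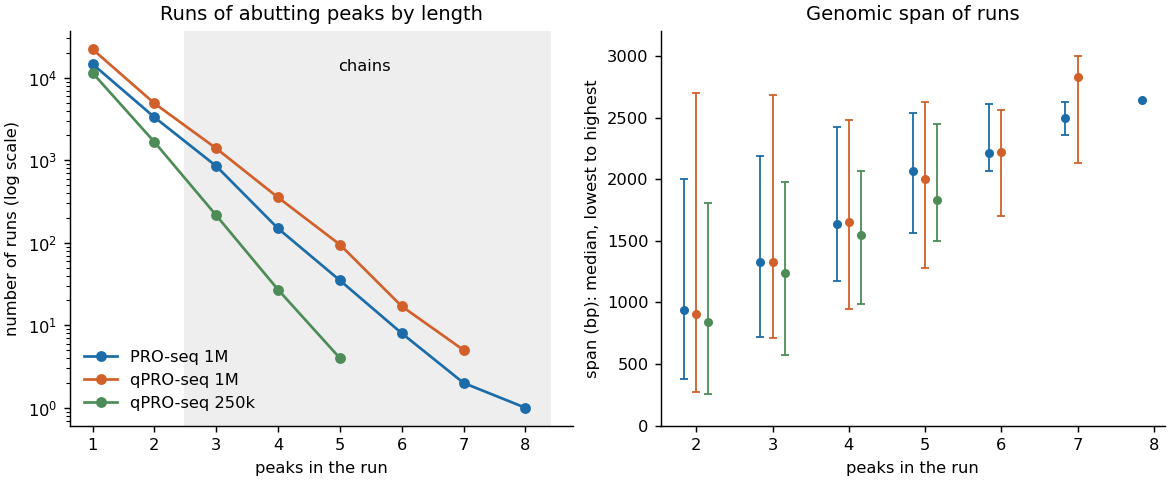
Left, the number of runs of abutting peaks (log scale) against the number of peaks in the run, with chains of 3 or more on grey. Right, the median span in bp of runs of each length with lines from the lowest to the highest. Counts fell with each added peak in all 3 lists, from 850, 1393 and 215 chains of 3 to 1, 5 and 4 of the longest kind.

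Chains held 13.7% of all PRO-seq 1M peaks, 16.3% of those in qPRO-seq 1M and 4.97% of those in qPRO-seq 250k, and 12.2%, 14.8% and 4.40% of the bases covered. That order followed the length of the lists and changed when each list was cut to its 15562 top-scored peaks. PRO-seq 1M then had 296 chains, qPRO-seq 1M had 156 and qPRO-seq 250k kept its 246. The cut took low-scored peaks from the 1M lists alone, where the lowest peak of a chain stood at median percentiles of 22.3 and 22.5. It thus breaks chains of those lists by construction and is no comparison on equal terms. Read depth is unknown for all 3 lists, so list length, depth, protocol and input cannot be told apart. Per 1000 peaks of a chromosome, chains ranged from 21.9 on chromosome 20 to 63.4 on chromosome 18 in PRO-seq 1M and from 31.3 on chromosome 20 to 58.9 on chromosome 6 in qPRO-seq 1M. Chromosome 18 stood between these extremes in qPRO-seq 1M, at 46.7 from 28 chains. In qPRO-seq 250k chromosome 18 was highest, at 28.8 from 7 chains, and chromosome 13 had 0 chains among 256 peaks. For reference, the whole PRO-seq 1M list held 1045 chains among 24707 peaks. The whole qPRO-seq 1M list held 1864 among 38177, and the whole qPRO-seq 250k list 246 among 15562. Differences between chromosomes were not tested.

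The longest chains lay at promoters. FADS1, a fatty acid desaturase gene, lay under the only chain of 8 peaks, in PRO-seq 1M (chr11:61814611-61817250, 2640 bp). The chain began 88 bp before the FADS1 start and ran 2552 bp into the gene, a stretch that also holds a start of its neighbour FADS2 on the other strand. Its peaks had widths of 350, 670, 110, 200, 290, 130, 230 and 520 bp in genome order, and their scores stood at percentiles 7.28, 91.0, 44.8, 37.7, 31.3, 10.4, 23.1 and 88.8 of the list. The 2 high peaks lay near the ends, on either side of 5 lower ones. On the same span qPRO-seq 1M had 4 peaks in 2 abutting pairs, with a stretch free of peaks between the pairs, and qPRO-seq 250k had a pair and a single peak. The dREG score has no fixed unit and was compared only within its own list.

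SP3, the gene of another Sp family zinc finger factor, carried the widest chain, 3000 bp with 7 peaks in qPRO-seq 1M (chr2:173963261-173966260). It began 558 bp before the annotated start and reached 2442 bp past it. PRO-seq 1M covered 84.7% of that span with 6 peaks, as a chain of 4 downstream and a pair over the start. With 5 peaks, none abutting, qPRO-seq 250k covered 64.7%. VAPA, which encodes a membrane protein of the endoplasmic reticulum, had the longest chain of qPRO-seq 250k, 5 peaks over 2450 bp (chr18:9913121-9915570), where PRO-seq 1M had a chain of 3 and qPRO-seq 1M a pair and a single peak.

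**Figure D2:**
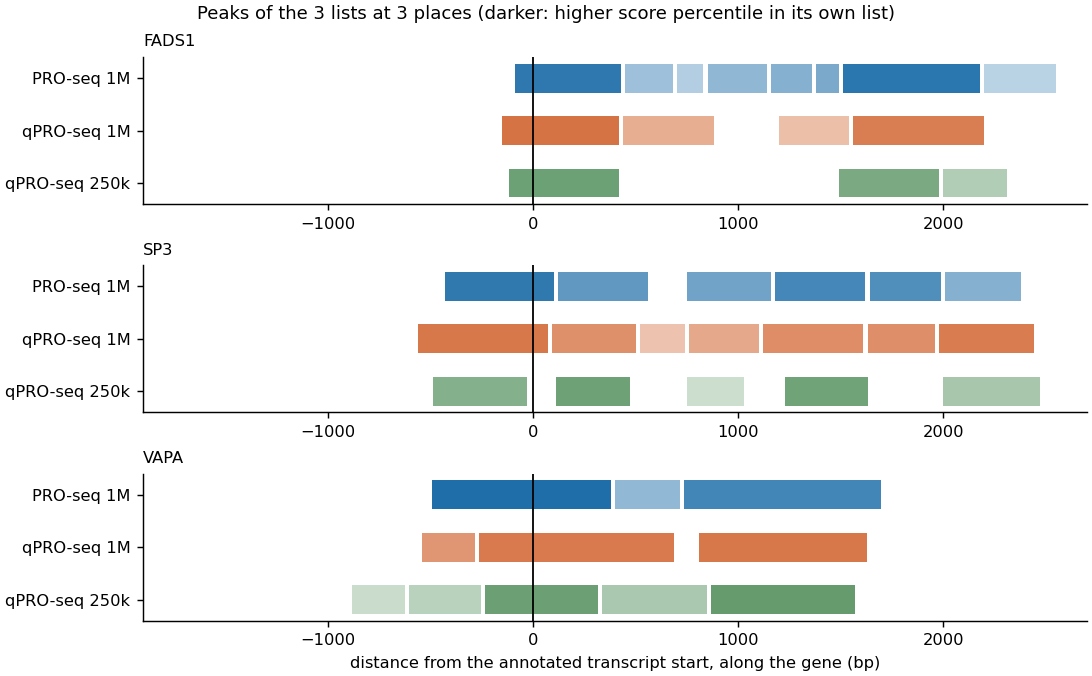
Peaks of the 3 lists at FADS1, SP3 and VAPA, each drawn to scale as a bar by distance in bp from the annotated transcript start along the gene, darker for a higher score percentile in its own list. The 20 bp gaps appear as white lines, and at SP3 the 7 peaks of qPRO-seq 1M stand as 6 and 5 peaks with wider gaps in the other lists.

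In PRO-seq 1M, BICRAL and SOCS2, the second a suppressor of cytokine signalling, had chains of 7 peaks. At SOCS2 (chr12:93569621-93571980) qPRO-seq 1M showed a chain of 5 and qPRO-seq 250k a chain of 4, whereas at BICRAL (chr6:42781381-42784010) qPRO-seq 250k had 1 peak over 16.7% of the span. TRIM25, a ubiquitin ligase gene, and REV3L, the gene of the catalytic subunit of a translesion polymerase, had 6 peaks each. In qPRO-seq 1M, chains of 7 peaks also lay at LRR1 and RPS29, at RRM2, which encodes a ribonucleotide reductase subunit, at VCPIP1, SGK3 and C8orf44, and at KIT.

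KIT, a receptor tyrosine kinase gene of blood progenitors, had a long chain of low scores. Its 7 peaks in qPRO-seq 1M (chr4:54657781-54659910, 2130 bp) stood between percentiles 11.1 and 49.0, so no peak reached the 50th percentile of the list. PRO-seq 1M had 3 peaks there with a pair among them, and qPRO-seq 250k had 1. ZNF436 had 5 peaks in both quick-protocol lists and 3 in PRO-seq 1M. MRPL36 and NDUFS6, divergent genes of a mitochondrial ribosomal protein and a complex I subunit, had 5 peaks in both quick-protocol lists and a chain of 3 in PRO-seq 1M. MRPL18 and TCP1 lay under a chain of 4 in qPRO-seq 250k and of 5 in qPRO-seq 1M, but a pair in PRO-seq 1M.

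Most chains lay at annotated starts. The span came within 500 bp of a GENCODE release 29 transcript start for 92.7% of PRO-seq 1M chains (Wilson 95% interval 91.0 to 94.2), 87.3% of qPRO-seq 1M chains (85.7 to 88.7) and 90.7% of qPRO-seq 250k chains (86.4 to 93.7). Over all peaks of the lists the shares were 68.1%, 54.2% and 73.5%. A wide span reaches a start more easily, so position was also read at the centre of the top-scored peak of each run. By that measure 85.9%, 79.8% and 85.0% of chains were near a start, against 53.5%, 36.6% and 65.6% of single peaks. The differences were 32.4 percentage points (30.04 to 34.6), 43.3 points (41.3 to 45.1) and 19.3 points (14.2 to 23.3).

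**Figure D3:**
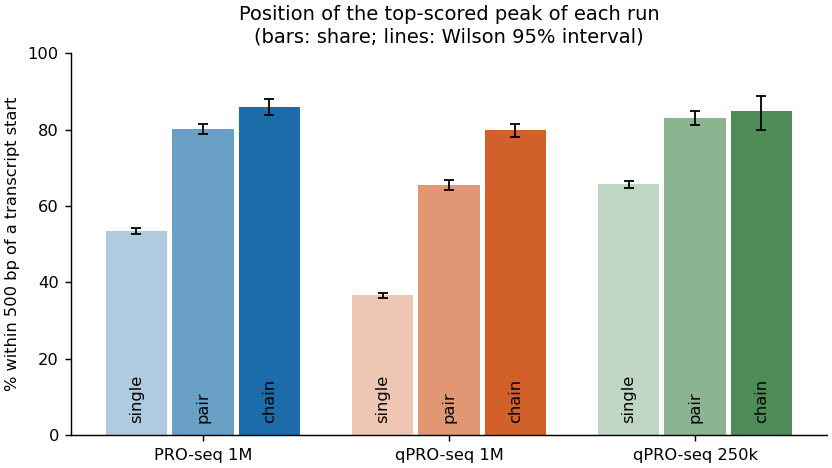
Share of runs whose top-scored peak has its centre within 500 bp of a transcript start, for single peaks, pairs and chains of each list, with Wilson 95% intervals. Chains stand at 85.9%, 79.8% and 85.0%, above single peaks in each list, and the intervals of chains and pairs overlap in qPRO-seq 250k.

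Against pairs of abutting peaks the difference was smaller. Measured over the whole span, it was not seen between runs of like span. At the centre of the top-scored peak, chains exceeded pairs by 5.82 points (3.22 to 8.24) in PRO-seq 1M, by 14.3 points (12.0 to 16.5) in qPRO-seq 1M and by 1.82 points (-3.47 to 6.17) in qPRO-seq 250k. This measure was not compared at like span. By the whole span the differences were 8.67 points (6.56 to 10.6), 15.4 points (13.4 to 17.3) and 3.85 points (-0.709 to 7.33), and the comparisons below use it. Among runs spanning 1200 to 1500 bp, 92.1% of 443 chains and 93.4% of 456 pairs of PRO-seq 1M came within 500 bp of a start, a difference of -1.32 points (-4.80 to 2.11). In qPRO-seq 1M it was 86.4% of 727 chains and 88.0% of 594 pairs (-1.66 points, -5.24 to 2.00), and in qPRO-seq 250k 92.2% of 102 chains and 93.3% of 104 pairs (-1.11 points, -8.80 to 6.44). The intervals for 900 to 1200 bp and 1500 to 1800 bp also included 0 in each list. Among pairs, the near share over the 3 span classes in rising order was 88.2%, 93.4% and 89.7% in PRO-seq 1M, 77.1%, 88.0% and 90.5% in qPRO-seq 1M, and 90.4%, 93.3% and 100% in qPRO-seq 250k, where the widest class held 8 pairs.

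Many chains covered more than 1 gene start. In PRO-seq 1M 38.1% of chains, in qPRO-seq 1M 35.1% and in qPRO-seq 250k 40.2% held starts of 2 or more genes. Starts on both strands lay in 35.2%, 31.7% and 34.96% of chains, and protein-coding starts on both strands in 147, 275 and 43. Among runs with a start inside, both strands were represented in 38.8%, 37.4% and 39.3% of chains and in 30.6%, 26.9% and 32.9% of pairs, which are shorter. For protein-coding starts on both strands the shares were closer, at 15.5%, 17.4% and 19.6% of these chains and 14.0%, 12.5% and 15.5% of these pairs. The share with starts of 2 or more genes was not compared with pairs.

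At promoters of 1 gene, chains reached further into the gene than before it by median, under a tie rule that favours this. The start was where most of the gene's transcripts in the span began, taken from the GENCODE basic set where possible. Ties went to the most upstream position, which lengthens the downstream arm and favours the upstream peak. Chains with a start inside held a median of 5 distinct start positions. No intervals were taken for the shares below, and the effect of the tie rule was not tested. Where exactly 1 protein-coding gene and no other started in the span, the chain extended a median of 519 bp upstream of the start and 826 bp downstream in PRO-seq 1M (509 chains). The medians were 603 and 777 bp in qPRO-seq 1M (836 chains) and 534 and 712 bp in qPRO-seq 250k (114 chains). The downstream arm was the longer in 62.3%, 57.4% and 55.3% of these chains, against 29.9%, 28.4% and 27.7% of single peaks over such starts. Runs of 2 lay between or close to chains, at 61.0%, 48.9% and 52.6%. The centre of the top-scored peak lay on either side of the start, at medians of -10, -27 and -28.5 bp from it (quartiles -88 to 208, -117 to 126 and -142 to 198 bp). In chains of 3 peaks the start fell in the upstream peak in 49.7%, 42.3% and 40.4% of cases, in the middle peak in 30.8%, 30.9% and 28.3%, and in the downstream peak in 19.5%, 26.7% and 31.3%. The peak with the start was also the top-scored in 66.7%, 71.4% and 60.6% of them.

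Chains mixed high and low scores. The top peak of a chain stood at a median percentile of 80.2 in PRO-seq 1M, 84.0 in qPRO-seq 1M and 78.2 in qPRO-seq 250k, and the lowest peak at 22.3, 22.5 and 15.7. At least 1 peak was above the 50th percentile of its list in 93.3%, 95.1% and 88.6% of chains, and all peaks were in 8.23%, 12.5% and 5.69%. The highest and lowest of 3 or more peaks lie apart in any set of peaks, so these values describe chains and were not compared with other groupings. Chain peaks that themselves lay near a start had median percentiles of 52.0, 59.0 and 46.0, against 61.8, 59.5 and 57.7 for single peaks near a start. Inner peaks were narrower than edge peaks, with median widths of 360 and 450 bp in PRO-seq 1M, 360 and 440 bp in qPRO-seq 1M and 350 and 410 bp in qPRO-seq 250k. Edge and inner peaks had like scores, with median percentiles of 50.2 and 49.1, 53.6 and 55.2, and 44.1 and 45.2.

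Most chains met a peak of each other list. Fewer met a chain, which is the narrower of these nested classes by definition. The 1045 chains of PRO-seq 1M met a chain of qPRO-seq 1M in 543 cases (52.0%), 2 or more peaks with an abutting pair in 376, separate peaks in 74, 1 peak in 49 and no peak in 3. Read in qPRO-seq 250k, the same chains met a chain in 122 cases (11.7%), 1 peak in 324 and no peak in 48. Of the 1864 qPRO-seq 1M chains, 544 (29.2%) met a chain of PRO-seq 1M, 394 a single peak and 31 none. In qPRO-seq 250k 177 (9.50%) met a chain, 702 a single peak and 125 none. Of the 246 qPRO-seq 250k chains, 122 (49.6%) met a chain of PRO-seq 1M and 177 (72.0%) a chain of qPRO-seq 1M, and 0 lacked a peak of qPRO-seq 1M, which allows a share of up to 1.54% (upper Wilson limit) or 1.22% (3 counts of the total). These shares moved when each list was cut to its top-scored peaks, which breaks chains of the 1M lists by construction. With 15562 peaks in each list, 19.3% of PRO-seq 1M chains met a qPRO-seq 1M chain, 36.5% the reverse, and qPRO-seq 250k chains met a chain of PRO-seq 1M and qPRO-seq 1M in 26.4% and 17.5%.

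**Figure D4:**
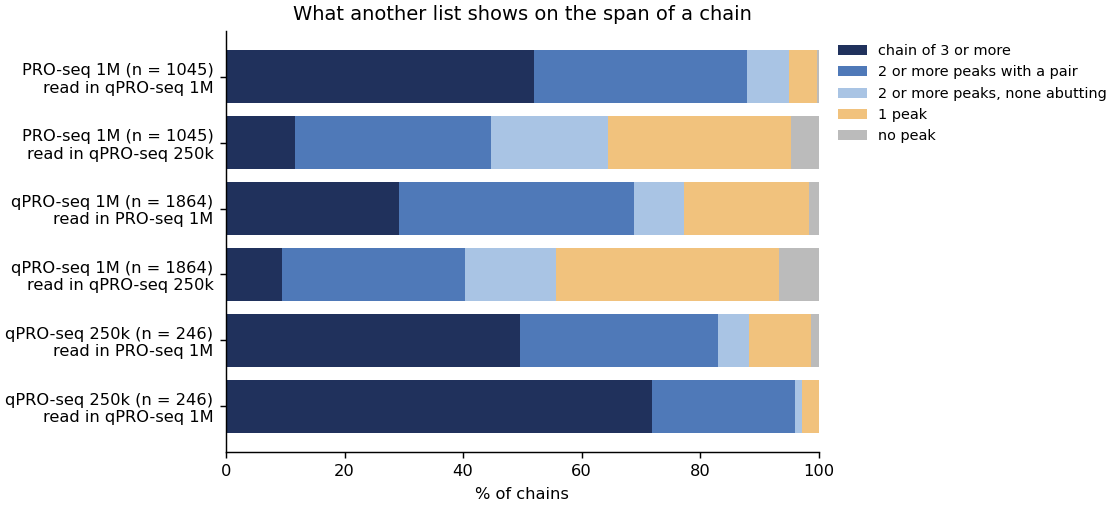
Percent of the chains of one list by what another list shows on their span: a chain, 2 or more peaks with a pair, separate peaks, 1 peak or none. Shares with no peak run from 0 to 6.71%, while shares with a chain run from 9.50% to 72.0%.

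Over all chains, coverage by another list varied with the pair of lists. The median share of a PRO-seq 1M chain's span covered by peaks was 88.8% in qPRO-seq 1M and 59.2% in qPRO-seq 250k. For qPRO-seq 1M chains it was 73.0% in PRO-seq 1M and 54.0% in qPRO-seq 250k, and for qPRO-seq 250k chains 90.3% and 95.6% in the 1M lists. A single peak of the other list lay over more than 50% of the span in 20.8% of PRO-seq 1M chains read in qPRO-seq 1M, in 24.3% of the reverse, in 37.8% and 26.4% of qPRO-seq 250k chains read in PRO-seq 1M and qPRO-seq 1M, and in 12.4% and 10.3% of PRO-seq 1M and qPRO-seq 1M chains read in qPRO-seq 250k. The same number of peaks lay on the span in 41.0% and 20.1% of chains between the 1M lists, and in 36.6% and 52.8% of qPRO-seq 250k chains read in PRO-seq 1M and qPRO-seq 1M. It did so in 13.7% of PRO-seq 1M and 8.32% of qPRO-seq 1M chains read in qPRO-seq 250k.

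The positions of the gaps differed as well. Of 2346 gaps inside PRO-seq 1M chains, 5.16% lay at the same position as a 20 bp gap of qPRO-seq 1M and 37.1% within 50 bp of one, while 68.6% were crossed by a qPRO-seq 1M peak. The peaks' own centres, as a reference inside the same chains, lay within 50 bp of a qPRO-seq 1M gap in 5.87% of cases. For the 4343 gaps of qPRO-seq 1M chains the shares in PRO-seq 1M were 4.17%, 26.1% and 64.98%, with centres at 4.70%. The 527 gaps of qPRO-seq 250k chains were at 7.21%, 49.7% and 76.3% in qPRO-seq 1M, with centres at 9.31%. Gaps lay near another list's gap more often than peak centres did. Centres lie away from the gaps of their own list by definition, and random positions were not used. For the same readings, gaps inside pairs lay within 50 bp in 40.2%, 21.9% and 50.15% of cases, so nearness was not particular to chains. Most chain gaps were bridged by a peak of another list, except in qPRO-seq 250k, where peaks crossed 46.5% and 44.2% of the gaps of the 1M lists.

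**Figure D5:**
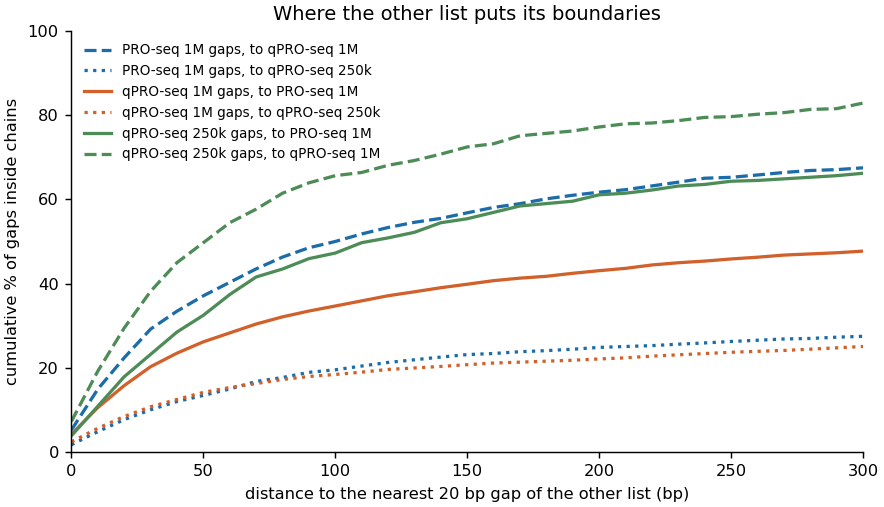
Cumulative percent of the gaps inside chains of one list (colour) by distance in bp to the nearest 20 bp gap of another list (line style). At 50 bp the curves stand between 13.4% for PRO-seq 1M gaps read in qPRO-seq 250k and 49.7% for qPRO-seq 250k gaps read in qPRO-seq 1M.

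Peaks inside chains were overlapped in other lists more often than single peaks were. Of chain peaks of PRO-seq 1M, 94.5% were overlapped by qPRO-seq 1M, against 88.0% of single peaks and 90.6% of all peaks. By qPRO-seq 250k it was 72.1%, 52.8% and 60.2%. For qPRO-seq 1M peaks the shares were 84.8%, 50.7% and 63.3% by PRO-seq 1M, and 67.5%, 31.7% and 44.1% by qPRO-seq 250k. For qPRO-seq 250k they were 94.95%, 89.3% and 91.2% by PRO-seq 1M, and 99.1%, 95.8% and 96.6% by qPRO-seq 1M. Peaks of abutting pairs were close to chain peaks in PRO-seq 1M, at 94.3% by qPRO-seq 1M and 70.5% by qPRO-seq 250k. They stood below chain peaks in qPRO-seq 1M, at 78.3% by PRO-seq 1M and 57.6% by qPRO-seq 250k. In qPRO-seq 250k they stood at 96.9% by PRO-seq 1M, above chain peaks, and at 98.9% by qPRO-seq 1M. Near starts alone, the difference between chain and single peaks was 4.83 points (3.76 to 5.82) and 10.1 points (8.17 to 12.0) for PRO-seq 1M read in qPRO-seq 1M and 250k. It was 16.7 points (15.4 to 17.9) and 22.7 points (21.1 to 24.3) for qPRO-seq 1M read in PRO-seq 1M and in qPRO-seq 250k. For qPRO-seq 250k read in PRO-seq 1M near starts the interval included 0 (1.23 points, -0.692 to 2.67). Among peaks away from starts the difference was 34.4 points (31.9 to 36.9) for qPRO-seq 1M read in PRO-seq 1M. There 69.5% of 1414 chain peaks and 35.1% of 12981 single peaks were overlapped. Position was read here at each peak and not at the chain. The 1414 thus include outer peaks of chains that reach a start, as only 237 chains of this list were distal. Averaged over 10 equal classes of score, the differences of the 6 comparisons lay between 3.88 and 30.9 points, all in the same direction. A chain peak also lies among other peaks of a wide active region, and how much of the difference came from that was not tested.

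Joined across lists, the chains made 2412 places. Of these 101 (4.19%) were chained in all 3 lists, 441 in both 1M lists alone, 481 in PRO-seq 1M alone, 1244 in qPRO-seq 1M alone and 48 in qPRO-seq 250k alone. A peak of every list was present at 2238 places (92.8%). Places are at least as wide as their chains, which makes meeting a peak easier, and no like share over all peaks was taken. The median span the 3 chains shared at these 101 places was 1200 bp. A start was near 92 of the places, and the 3 chains had the same number of peaks at 30. Among the widest were HNRNPUL1 (4, 5 and 4 peaks, 1750 bp common), which encodes an RNA-binding protein, HIST1H4J (4, 5 and 4 peaks, 1750 bp), TRIM5, an antiviral restriction factor (3, 4 and 4 peaks, 1680 bp), and the pair ACTR3C and LRRC61 (3, 5 and 3 peaks, 1680 bp). HNRNPUL1 spanned 1870 bp in PRO-seq 1M, 2590 bp in qPRO-seq 1M and 1840 bp in qPRO-seq 250k.

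Over all genes, a start under a peak lay in a chain for 1113 of 10503 protein-coding genes in PRO-seq 1M (10.6%), 1873 of 10821 in qPRO-seq 1M (17.3%) and 269 of 8735 in qPRO-seq 250k (3.08%). For other genes the shares were 11.6%, 15.8% and 3.28%. A chain of any list held the start of 2425 protein-coding genes, and a chain of every list held 108. These 108 included POLR2A, the largest subunit of RNA polymerase II, and CDK9 and CDK12, kinases of its tail.

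Erythroid and blood regulators, transcription factors of the lineage to which K562 belongs, had counts in chains near the shares of all protein-coding genes (10.6%, 17.3% and 3.08%). Of 15 with a start peak in each 1M list 2 were in a chain in each (13.3%), and of 12 in qPRO-seq 250k 0 were. ETV6 had 3 peaks in both 1M lists and 1 in qPRO-seq 250k. RUNX1 had 2, 3 and 1, and LDB1 had 3, 1 and 1. GATA1, GATA2, KLF1, NFE2 and GFI1B, central factors of the erythroid and megakaryocytic lines, had a single peak at the start in each list. Of the 16 genes of the list, BCL11A had no start peak in any list, and ZFPM1, CBFA2T3 and LMO2 had a start peak in both 1M lists but not in qPRO-seq 250k. Among immediate-early genes, which respond within minutes to stimuli, 0 of 13, 2 of 14 (14.3%) and 0 of 12 were in chains, where all protein-coding genes stood at 10.6%, 17.3% and 3.08%. The 2 were EGR1, with 4 peaks in qPRO-seq 1M, 2 in PRO-seq 1M and no peak in qPRO-seq 250k, and MYC, with 3, 1 and 1.

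Heat shock and chaperone genes were in a chain in 2 of 8, 4 of 8 and 0 of 8 cases, beside 10.6%, 17.3% and 3.08% of all protein-coding genes. HSP90AA1, a cytosolic chaperone gene, had 3, 4 and 1 peaks (PRO-seq 1M first, then qPRO-seq 1M and qPRO-seq 250k), and HSP90AB1 had 3, 3 and 2. HSPD1 and HSPE1, divergent mitochondrial chaperone genes, shared 1 peak of 1090 bp in PRO-seq 1M and a chain of 4 peaks over 1590 bp in qPRO-seq 1M. Splicing factor genes were in a chain in 4 of 18 (22.2%), 4 of 18 (22.2%) and 1 of 18 (5.56%) cases, with HNRNPA1 and HNRNPH1 chained in both 1M lists and HNRNPA2B1 in qPRO-seq 250k alone. Noncoding RNA and snoRNA host genes were in a chain in 0 of 12, 5 of 12 and 3 of 12. SNHG12 had 2, 6 and 2 peaks, MALAT1, a long nuclear RNA, had 2, 4 and 3, and ZFAS1 had 2, 3 and 3. With 12 genes these counts are small, and other genes as a whole were at 11.6%, 15.8% and 3.28%.

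Ribosomal protein genes were in a chain in 11 of 76 cases in PRO-seq 1M (14.5%), 15 of 76 in qPRO-seq 1M (19.7%) and 0 of 74 in qPRO-seq 250k, where all protein-coding genes stood at 10.6%, 17.3% and 3.08%. RPS29 had 4, 7 and 1 peaks, under a span it shares with LRR1, and RPL37 had 2, 4 and 2. RPL15 had 2, 3 and 2 peaks with top scores at percentiles 99.8, 99.6 and 99.9. Replication-dependent histone genes were in a chain in 6 of 44, 13 of 50 and 5 of 43 cases. HIST1H4J had 4, 5 and 4 peaks, and HIST2H2AB and HIST2H2AC share a span of 3, 4 and 2. Copies of these genes are nearly identical, and the handling of reads that match several is not given in the sources used here, so their counts are uncertain. Chromosome 19 ZNF genes were in a chain in 11 of 145, 21 of 168 and 2 of 119 cases, or 7.59%, 12.5% and 1.68%. The 2 in qPRO-seq 250k were ZNF584 (4, 5 and 4 peaks) and ZNF77 (3, 4 and 3).

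Distal chains, more than 500 bp from any start, numbered 76 in PRO-seq 1M, 237 in qPRO-seq 1M and 23 in qPRO-seq 250k. Of these 48, 118 and 15 were intergenic, 17, 81 and 4 intronic, and 11, 38 and 4 touched an exon. They lay a median of 7098, 6457 and 7750 bp from the nearest transcript start, and 35, 92 and 10 were over 10000 bp away. Their top peaks stood at median percentiles of 74.9, 77.8 and 69.0, against 80.9, 84.9 and 78.8 for chains near starts. A chain of another list lay on 36 of the 76 (47.4%), 45 of the 237 (18.99%) and 14 of the 23 (60.9%), against 54.0%, 33.3% and 80.5% of all chains. Without any peak of another list were 0, 14 and 0 distal chains, beside 1, 19 and 0 of all chains.

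The distal chain with most peaks was in qPRO-seq 1M (chr6:28488891-28490590), 6 peaks in 1700 bp at 25197 bp from GPX6. On it PRO-seq 1M had a pair and qPRO-seq 250k a chain of 3. In PRO-seq 1M it was one of 5 peaks (chr19:18291341-18293010), 9719 bp from JUND, a gene of the AP-1 family. There qPRO-seq 1M had 3 peaks with a pair and qPRO-seq 250k had 1. An intron of the long noncoding gene LINC02320 held a chain of 4 in PRO-seq 1M (chr14:101709881-101711820) and of 5 in qPRO-seq 1M (chr14:101709731-101711820), with the top peak at percentiles 98.2 and 99.4. A second chain of 5 peaks in qPRO-seq 1M lay beside it (chr14:101713621-101715960). Near IRF1, an interferon regulatory factor gene, a qPRO-seq 1M chain of 5 (chr5:132495511-132497690) lay 4713 bp from the start, with a chain of 3 in PRO-seq 1M.

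Of the 101 places chained in every list, 9 were distal. The intron of DLGAP1 (chr18:3623961-3625240 in qPRO-seq 250k), 104138 bp from that gene's start, had 4 peaks in each list, with top percentiles of 58.8, 68.3 and 40.8. An intergenic place 17400 bp from FCGR3B (chr1:161611711-161612850 in common) had 3 peaks in each, with top percentiles of 98.0, 96.3 and 99.3. A place inside ANK1, the gene of an erythrocyte ankyrin, had 3 peaks in each over 1100 bp in common (chr8:41828131-41829230). The place with the widest common span of the 9, 1610 bp, was intergenic on chromosome 1, 48011 bp from RPS6KA1, with 3, 5 and 3 peaks. Distance to a gene gives position only, and no target was measured.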

How the data were processed

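The data were 3 deposited lists of dREG peaks without headers, 1 per group of 2 libraries, matched to groups by the labels. The authors deposited for each peak a start, end and centre, a score without a fixed unit, and a p-value, which lay below 0.05 in each list. Per the submitters' processing notes, fastp 0.20.0, UMI-tools, Bowtie2 2.3.5.1 and deepTools 3.1.3 were used with hg38. Pooling of replicates, read counts and dREG settings are not given in the sources used here, so depth is unknown, and no spread between replicates and no test between groups could be had. Starts were converted to count from 1.

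Peaks on chromosomes 1 to 22 and X were chained at gaps of 20 bp (Python 3.11.15, pandas 2.3.3) and set beside GENCODE release 29 starts. Promoter sequences were RefSeq's, GRCh38.p14, with windows of 15812 protein-coding genes, counted by symbol. Wilson and Newcombe 95% intervals cover counting error only and are too narrow where adjoining peaks, or windows of 1 gene, depend on each other. Chaining and overlap were tested on simulated peaks. The chains and gene lists were chosen with earlier results of these data known. Named were the 5 chains and 5 distal chains with the most peaks per list, the 5 widest places chained in all lists, and up to 4 genes per gene list by peaks. Some genes that this rule names are not reported here. Genes and distal places named beyond these were chosen after their values were seen. Alternatives were a gap of up to 50 bp, p of at most 0.01, equal list size, 4 peaks, a window of 1000 bp, protein-coding starts, a coverage of 50% and all sequences.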

Additional observations from a re-analysis of the deposited data

How the results depend on the processing

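Values are listed for PRO-seq 1M first and 250k last. With every list cut to its 15562 top-scored peaks, the 250k list stayed as it was and the 1M lists lost low-scored peaks, by construction. The 1M lists held 296 and 156 chains, 5.93% and 3.11% of peaks in chains, and 95.9% and 91.7% of chains near a start. Shares met by a chain of another list became 19.3% for PRO-seq 1M chains read in the other 1M list and 21.96% in 250k. They became 36.5% and 27.6% for qPRO-seq 1M chains, and 26.4% and 17.5% for 250k chains. With chains of 4 or more peaks there were 195, 471 and 31 chains, holding 3.40%, 5.31% and 0.823% of peaks, with 95.4%, 90.7% and 96.8% near a start. The shares met by such a chain were then 40.5% and 4.62% (PRO-seq 1M), 16.8% and 4.46% (the quick protocol on 1M cells), and 29.03% (250k chains read in PRO-seq 1M). With p of at most 0.01 before chaining, 250k held 128 chains, peaks in chains were 10.8%, 13.1% and 3.16%, and shares met by a chain were 47.8% and 7.81% (PRO-seq 1M) and 26.8% and 7.11% (the quick protocol on 1M cells). Protein-coding starts alone gave 87.7% and 81.4% of chains near a start in the 1M lists, and a window of 1000 bp gave 89.5% in qPRO-seq 1M. Each of these settings uses fewer peaks, longer chains, fewer starts or a wider window by construction. Of 75 alternative values, the other 38 stayed within 1.5 times a count or within the 95% interval of a share, among them all values for a gap of up to 50 bp, for all sequences and for a chain over 50% of the span. No paired analysis was possible because each group had 1 list for its 2 replicates. Leaving out a replicate was not possible for the same reason. Read depth is unknown, and the lists give no counts from which a limit per chain could be set.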

Other observations

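Outside chromosomes 1 to 22 and X, the same rule found 3 chains in PRO-seq 1M, 3 in qPRO-seq 1M and 1 in qPRO-seq 250k, from 75, 220 and 44 peaks. Of these 2, 2 and 1 lay on alternate versions of a chromosome region, which repeat sequence of the main chromosomes, and 1, 1 and 0 on unplaced sequence.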
